A study of Homo sapiens with 18 samples.

Results

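The metallothionein cluster is a run of small genes on chromosome 16, and its 10 members considered here were MT2A, MT1A, MT1E, MT1F, MT1G, MT1H, MT1M, MT1X, MT3 and MT4. Chromatin accessibility over the cluster was read from 31 windows of 1 kb, out of 89428 in the deposited table, whose start lies between 56550000 and 56750000 on chromosome 16 (hg19). Of these 31 windows, 12 overlapped a member gene in the GENCODE annotation of GRCh37. The window that contains a gene's start, called its promoter window here, was present for 6 members, namely MT2A, MT1E, MT1M, MT1A, MT1F and MT1X. No window over MT1G, MT1H, MT3 or MT4 was analysed here. The table holds only windows above 2 FPKM in at least 2 of the 18 libraries, and 14.0% of the 222 tiling windows of the range are in it.

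Metallothioneins are small cysteine-rich proteins that bind zinc and copper and buffer them in the cell, and they also bind cadmium and platinum. MT2A and MT1 genes are induced by metals through MTF1, a zinc-sensing transcription factor that binds metal response elements in their promoters. MT2A and several MT1 isoforms are expressed in many tissues, whereas MT3 is best known from brain and MT4 from stratified squamous epithelium.

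ATAC-seq, in which the Tn5 transposase inserts adapters into open chromatin, was performed on 6 established human ovarian cancer cell lines with 3 libraries each. A2780, PEA1 and PEO1 are labelled platinum-sensitive and their partners CP70, PEA2 and PEO4 platinum-resistant, which makes 3 pairs, all cultured in RPMI-1640 with fetal bovine serum and no drug named in the labels. The labels of A2780 and CP70 read endometrial/ovarian, those of the other lines ovarian. CP70 was selected in culture from A2780, whereas the other two pairs are lines taken from one patient each at different stages of treatment. Each group is therefore 1 cell line, and since the labels do not say whether replicate libraries came from separate cultures, p-values measure only the spread between these libraries.

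Values are FPKM, the reads of a window scaled to its length and to the library total, and because all windows have the same length they can be compared between genes. Whole reads recovered from the FPKM gave totals from 8963079 reads in a PEO1 library to 60435027 in an A2780 library. The share of reads inside the table was lowest in A2780, at 9.26% ± 0.832 (SD, n = 3 for each line here and below), and 13.1% ± 2.16 for CP70. It was 15.3% ± 2.12 for PEA1, 18.9% ± 1.82 for PEA2, 34.4% ± 1.51 for PEO4 and 39.9% ± 0.949 for PEO1, and FPKM levels moved with it. Promoter windows of ovarian and epithelial marker genes were in the table for 9 of 10 genes, and they exceeded 2 FPKM for 0 of 9 in A2780 and CP70, 4 and 6 in PEA1 and PEA2, and 8 and 7 in PEO1 and PEO4. Their summed level ran from 7.48 FPKM in A2780 to 71.5 in PEO4. In A2780 and CP70 the defining markers PAX8 and EPCAM lay between 0.610 and 1.18 FPKM, low on this scale. EPCAM was also low in PEA1, at 1.10 FPKM, whereas PAX8 was at 3.37 there. Of the leukocyte markers 1 of 4 was in the table, CD14, at 0.590 to 5.67 FPKM, and of the endothelial and stromal markers none.

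The metal response elements of the cluster can be read directly in its promoters. The core letters searched were TGCACNC and TGCGCNC on both strands, which did not overlap one another in these promoters, and the AP-1 motif TGACTCA or TGAGTCA. The RefSeq promoter table (GRCh38.p14) held 4 of the 10 members, and the 250 bases before the start of each are shown because MTF1, the metal sensor of the pathway, binds this element. Each is on the plus strand, at chr16:56608334-56608583 for MT2A, chr16:56682220-56682469 for MT1X, chr16:56669564-56669813 for MT1H and chr16:56564823-56565072 for MT4. Capitals mark the cores, written as they read on the strand shown.
MT2A: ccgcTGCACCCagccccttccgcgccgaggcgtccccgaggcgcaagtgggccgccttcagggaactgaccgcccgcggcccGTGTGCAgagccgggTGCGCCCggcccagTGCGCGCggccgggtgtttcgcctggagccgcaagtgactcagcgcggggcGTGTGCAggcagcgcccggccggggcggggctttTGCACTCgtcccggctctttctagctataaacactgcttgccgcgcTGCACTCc
MT1X: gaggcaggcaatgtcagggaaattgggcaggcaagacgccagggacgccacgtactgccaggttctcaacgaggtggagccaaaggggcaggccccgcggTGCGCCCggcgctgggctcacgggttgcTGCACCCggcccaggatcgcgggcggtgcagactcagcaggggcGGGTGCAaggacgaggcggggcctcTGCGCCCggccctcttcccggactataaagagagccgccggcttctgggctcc
MT1H: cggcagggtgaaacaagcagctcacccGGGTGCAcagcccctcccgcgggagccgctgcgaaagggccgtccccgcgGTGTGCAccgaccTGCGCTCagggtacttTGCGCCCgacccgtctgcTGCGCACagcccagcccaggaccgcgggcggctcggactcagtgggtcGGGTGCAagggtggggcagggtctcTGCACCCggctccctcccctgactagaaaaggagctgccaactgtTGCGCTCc
MT4: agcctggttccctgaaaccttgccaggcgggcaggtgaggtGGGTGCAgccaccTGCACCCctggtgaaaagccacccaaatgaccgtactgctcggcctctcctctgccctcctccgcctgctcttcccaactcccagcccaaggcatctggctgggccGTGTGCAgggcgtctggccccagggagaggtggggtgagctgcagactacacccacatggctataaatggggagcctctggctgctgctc

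MT2A held 7 cores, MT1X 4, MT1H 8 and MT4 3, and MT2A also held 1 AP-1 motif. At least 1 core was found in 24.8% of 35116 RefSeq promoters of the same length, and as many as in MT2A, MT1X, MT1H and MT4 in 0.0313%, 0.370%, 0.0171% and 1.58% of them. The AP-1 motif was found in 4.20%. MT1X and MT1H both carried cores that begin at positions -78 and -53 from the start, and MT2A and MT1H both carried one at -8. In the GRCh37 sequence of the 31 accessibility windows, 25 (80.6%) held a core, against 59.4% of all windows and 75.8% of the 12700 promoter windows of protein-coding genes. The mean was 2.74 cores per window, against 1.08 over all windows and 1.66 over promoter windows. The promoter window of MT1F held 9, that of MT1X 6, those of MT2A, MT1E and MT1M 5 each and that of MT1A 2. The window just upstream of MT2A, which also contains the start of the gene, held 8.

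The first question was how open the cluster was in each line. MT2A, the main metallothionein of many human cells, has its promoter window at chr16:56642400-56643400. It measured 1.69, 1.96 and 1.59 FPKM in A2780, 3.75, 3.24 and 2.88 in PEA1, 3.13, 3.64 and 4.75 in PEA2, 5.45, 2.99 and 3.27 in CP70, 6.39, 7.05 and 6.48 in PEO4, and 8.70, 7.59 and 7.36 in PEO1. All A2780 libraries lay below those of every other line, the PEO libraries lay above those of the other 4 lines, and PEA1, PEA2 and CP70 overlapped. An open window in fewer cells and a less open window in all cells cannot be told apart in such libraries. The means ran from 1.75 ± 0.193 FPKM in A2780 to 7.88 ± 0.718 in PEO1. Neighbours in the order of levels were compared with limma over all 18 libraries. A2780 differed from PEA1 (log2 difference 0.87, limma adjusted p = 0.000333; 57.3% of the 74141 windows tested passed in this contrast) and CP70 from PEO4 (0.80, limma adjusted p = 0.000501; 82.5% passed). PEA1 and PEA2 (limma adjusted p = 0.413; 57.6% passed), PEA2 and CP70 (0.98; 68.4% passed) and PEO4 and PEO1 (0.347; 51.2% passed) did not differ beyond their spread.

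MT1X, a broadly expressed isoform at the telomeric end of the cluster, followed a similar order at chr16:56716200-56717200. Its libraries measured 1.5, 1.42 and 1.27 FPKM in A2780, 4.07, 4.24 and 3.02 in PEA1, 5.91, 3.53 and 2.47 in CP70, 4.73, 3.29 and 4.93 in PEA2, 8.49, 7.92 and 7.27 in PEO4, and 9.11, 8.81 and 9.03 in PEO1. The CP70 libraries were the most scattered and spanned those of PEA1 and PEA2. Only 2 of the 5 steps in the order passed, A2780 to PEA1 (log2 difference 1.36, limma adjusted p = 4.23e-07) and PEA2 to PEO4 (0.87, limma adjusted p = 0.000355; 75% passed over all windows).

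MT1F, another MT1 isoform, spanned the widest range of the 6 promoters, and its window is at chr16:56691000-56692000. The libraries measured 0.645, 0.608 and 0.760 FPKM in A2780, 1.97, 1.08 and 1.80 in CP70, 2.66, 3.08 and 1.82 in PEA1, 5.83, 4.51 and 4.93 in PEA2, 5.70, 6.77 and 6.18 in PEO4, and 10.5, 12.3 and 12.7 in PEO1. No library of A2780 or PEO1 overlapped those of another line. The order was A2780 (0.671 ± 0.0793), CP70 (1.62 ± 0.474), PEA1 (2.52 ± 0.642), PEA2 (5.09 ± 0.673), PEO4 (6.21 ± 0.536) and PEO1 (11.8 ± 1.16 FPKM). Every step passed except PEA2 to PEO4 (log2 difference 0.29, limma adjusted p = 0.221). The smallest step that passed was CP70 to PEA1, with a log2 difference of 0.62 (limma adjusted p = 0.013; 50.9% passed over all windows), and A2780 to CP70 was 1.12 (limma adjusted p = 8.92e-05; 34.2% passed).

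MT1E, at chr16:56659500-56660500, ran from 0.894 ± 0.205 FPKM in A2780 and 0.947 ± 0.168 in CP70 to 6.52 ± 0.654 in PEO1. A2780 and CP70 did not differ beyond their spread (limma adjusted p = 0.796), nor did PEO4 and PEO1 in this fit (limma adjusted p = 0.065). MT1M, at chr16:56665800-56666800, had 0.777 ± 0.219 FPKM in A2780, 1.07 ± 0.218 in CP70, 2.14 ± 0.494 in PEA1, 2.57 ± 0.331 in PEO4, 3.84 ± 0.616 in PEA2 and 4.89 ± 0.936 in PEO1. It was the promoter in which PEA2 ranked above PEO4 (log2 difference 0.56, limma adjusted p = 0.0256), and PEA2 and PEO1 did not differ beyond their spread (limma adjusted p = 0.173; 78.8% of windows passed in this contrast). PEA1 and PEO4 also did not differ beyond it (limma adjusted p = 0.283; 76.7% passed). MT1A, at chr16:56672100-56673100, had the lowest mean of the 6 over all lines, though not within A2780 or CP70, and ran from 0.567 ± 0.218 FPKM in PEA1 to 2.10 ± 0.189 in PEO1, and PEO4 to PEO1 was its only step in the order that passed (log2 difference 0.81, limma adjusted p = 0.0119). PEA2 and A2780 were neighbours in its order (limma adjusted p = 0.446; 67.8% passed over all windows). Over the 6 promoters and 15 contrasts of lines, 69 of 90 differences passed, a share near the 69.7% of all windows and 70.3% of promoter windows over the same contrasts. The MT1 genes are near copies of one another and the authors kept uniquely aligned reads, so their values are uncertain where copies are identical.

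**Figure D1:**
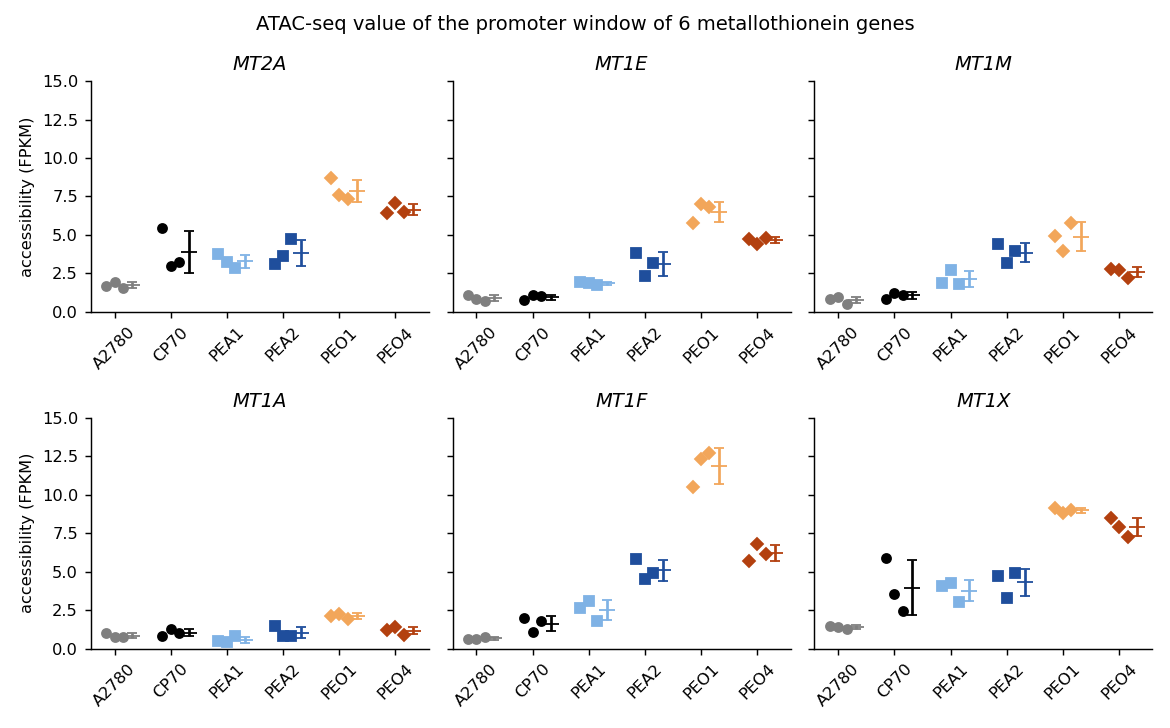
Accessibility (FPKM) of the promoter window of 6 metallothionein genes in 6 lines; points are the 3 libraries of a line and the bar beside them is the mean with its SD. The PEO1 libraries of MT1F sit between 10.5 and 12.7 FPKM, above all other libraries, and MT1A stays between 0.405 and 2.27 FPKM in all 18.

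Because the share of reads in the table differed between lines, each promoter was also ranked within its own library among 12700 promoter windows. MT2A stood at the 40.2 ± 2.35 percentile in A2780 and at the 71.2 ± 12.6 in PEA2, with the other 4 lines between. MT1X ranged from 27.9 ± 2.78 in A2780 to 76.7 ± 7.29 in PEA2. These genes were thus placed within the body of promoters in all lines.

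MT1F ranked at the 6.03 ± 2.56 percentile in A2780 and 19.3 ± 7.43 in CP70. It ranked at 34.8 ± 6.58 in PEA1 against 84.8 ± 1.5 in PEA2, and at 72.1 ± 4.67 in PEO1 against 43.6 ± 3.11 in PEO4. The libraries of the 2 lines of each pair did not overlap. MT1M ranked at 8.14 ± 4.37 in A2780, 27.0 ± 7.63 in PEA1 against 71.7 ± 4.29 in PEA2, and 32.8 ± 8.68 in PEO1 against 15.4 ± 2.24 in PEO4, and MT1E at 11.2 ± 4.90 in A2780, 58.6 ± 11.3 in PEA2 and 44.9 ± 4.57 in PEO1. MT1A stayed at or below 10.9 ± 3.67, its value in CP70. On this scale PEA2 and not PEO1 held the highest mean rank for 5 of the 6 promoters, MT1A being the exception. This was not particular to the members. The promoter window of BBS2, a gene of the range that is no member, also ranked highest in PEA2 (76.9 ± 5.10), against 57.4 ± 2.61 in PEO1 and 48.4 ± 6.12 in PEA1. After division of each library by its median window, the order changed again, and CP70 was highest for MT2A (7.48 ± 2.61 on the FPKM scale after rescaling) and MT1X (7.60 ± 3.40). A2780 was then no longer lowest for MT2A (4.09 ± 0.491), with PEO1 at 4.40 ± 0.302 and PEA2 lowest at 3.52 ± 0.802. MT1A was highest in CP70 (2.00 ± 0.400) and A2780 (1.97 ± 0.275), while MT1F (6.62 ± 0.801) and MT1E (3.64 ± 0.431) stayed highest in PEO1. MT1M was highest in PEA2 (3.49 ± 0.317). The steps between lines given above were tested on FPKM without this rescaling.

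**Figure D2:**
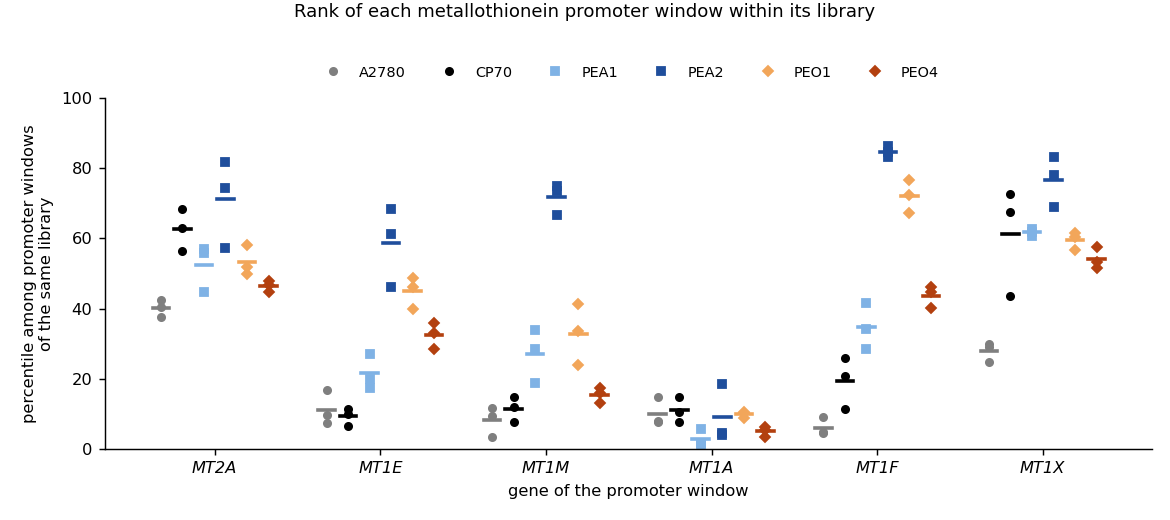
Percentile of each promoter window among 12700 promoter windows of the same library; points are libraries and the short line is the mean of 3. MT1F runs from a mean of 6.03 in A2780 to 84.8 in PEA2, while MT2A stays between 40.2 and 71.2.

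The profile along the range was examined next. Over the 31 windows the median level was 0.586 FPKM in A2780 and 0.808 in CP70, 1.27 in PEA1 and 2.93 in PEA2, and 3.70 in PEO1 and 2.70 in PEO4. In the same order of lines, 0, 5, 9, 24, 25 and 20 windows had a mean above 2 FPKM. The share of all windows above this bound, which is also the limit of the table, was not counted. Library medians over all windows moved as well, with A2780 libraries at 0.645 to 0.732 FPKM and PEO1 libraries at 2.79 to 2.93. PEA2 libraries had 1.62 to 1.87 and PEO4 libraries 2.24 to 2.27, the reverse of their order over the range. These levels and counts do not by themselves set the range apart. Per 100000 reads of the table, the range took 24.3 ± 2.19 in A2780 against 29.8 ± 0.205 in CP70, 33.3 ± 0.172 in PEA1 against 53.3 ± 2.78 in PEA2, and 37.7 ± 0.991 in PEO1 against 31.3 ± 0.469 in PEO4. PEA2 was highest by this measure, which does not depend on the share of reads outside the table. The measure does depend on which windows are in the table. Those at chr16:56645100-56646100 and chr16:56664900-56665900 are in it only through PEA2 libraries, which favours PEA2. The member promoter windows alone took 11.2 ± 0.759 in PEA2 and 10.6 ± 0.525 in PEO1, so the lead of PEA2 over PEO1 lay mostly in other windows. They took 9.55 ± 0.538 in CP70, 9.30 ± 0.128 in PEA1, 8.48 ± 0.0331 in PEO4 and 6.85 ± 0.421 in A2780.

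The most accessible window was that at chr16:56641500-56642500, just upstream of and including the MT2A start, in A2780, CP70, PEA1 and PEO4. In PEA2 and PEO1 it was the next window upstream, at chr16:56640600-56641600, centred at -1.4 kb from the start. That upstream window measured 10.4, 6.36 and 7.76 FPKM in PEA2 and 14.0, 13.5 and 13.7 in PEO1, but 0.593, 0.496 and 0.612 in A2780 and 0.682, 0.958 and 0.377 in CP70. It was thus below 1 FPKM in every library of the A2780 pair and among the most open windows of the range elsewhere. Its ratio to the MT2A promoter window within a library was 0.330 ± 0.0687 in A2780 and 0.187 ± 0.115 in CP70, whereas it was 1.18 ± 0.317 in PEA1 against 2.23 ± 0.940 in PEA2, 1.75 ± 0.132 in PEO1 and 1.26 ± 0.145 for PEO4. All 6 libraries of A2780 and CP70 lay below all 12 of the other lines. The ratio of MT1F to MT2A had the same property, at 0.390 ± 0.0848 and 0.424 ± 0.110 in A2780 and CP70 and 0.765 ± 0.166, 1.38 ± 0.429, 1.52 ± 0.274 and 0.935 ± 0.0380 in PEA1, PEA2, PEO1 and PEO4. The ratio of MT1E to MT2A did not have it, since A2780 (0.515 ± 0.126, with 0.660 in replicate 1) overlapped PEA1 (0.572 ± 0.0479, with 0.521 in replicate 1). How many other windows of the table separate the lines in this way was not counted. The upstream window and that of MT1F exceeded 2 FPKM, the limit of the table, only in libraries of the PEA and PEO lines. MT1X stayed near MT2A, with mean ratios from 0.804 ± 0.0813 in A2780 to 1.19 ± 0.118 in PEO4. Such ratios within a library do not depend on its total.

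**Figure D3:**
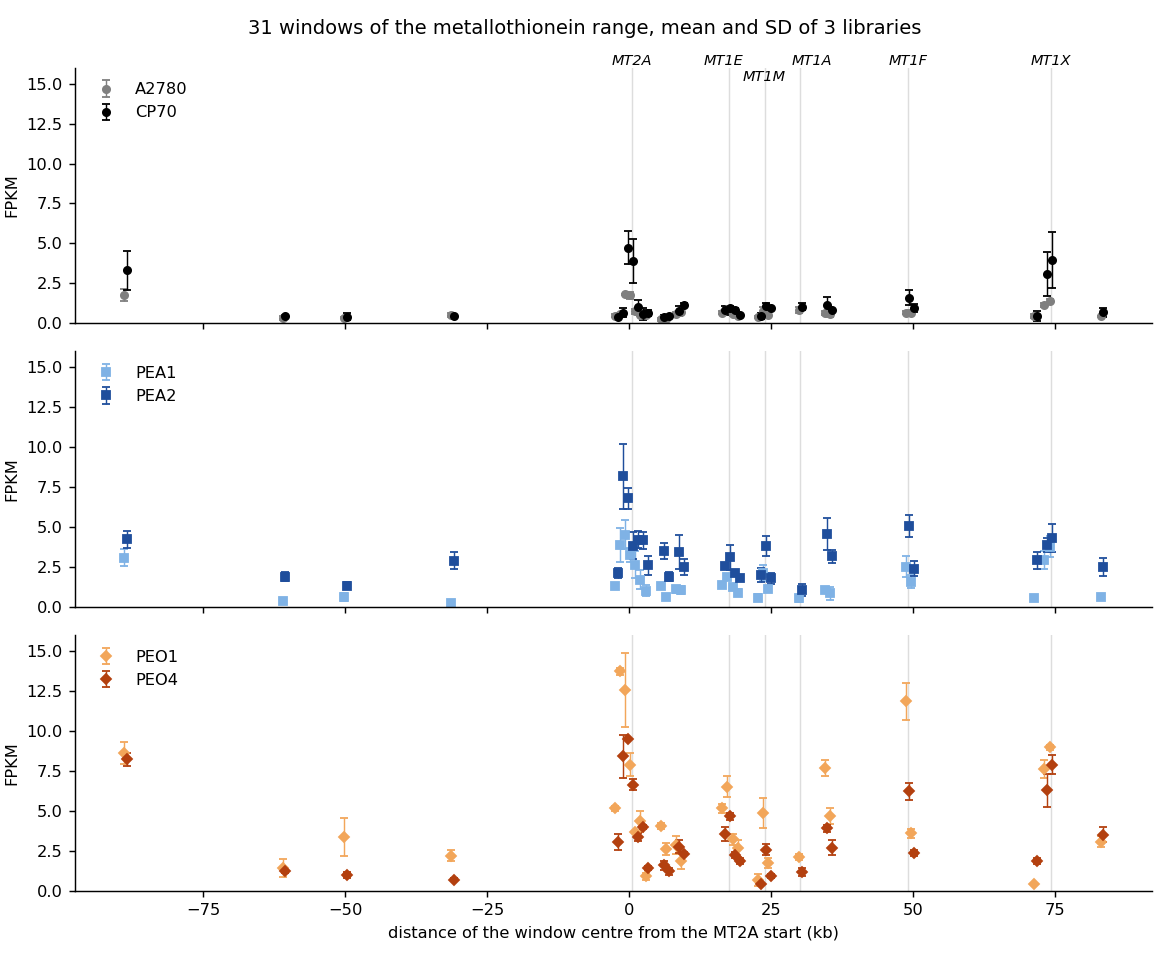
Mean accessibility (FPKM) with SD of 3 libraries in the 31 windows, by distance of the window centre from the MT2A start in kb, for each pair of lines; grey lines mark the 6 promoter windows. PEO1 reaches 13.7 FPKM upstream of MT2A and 11.8 at MT1F, whereas no A2780 window has a mean above 1.81.

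**Figure D4:**
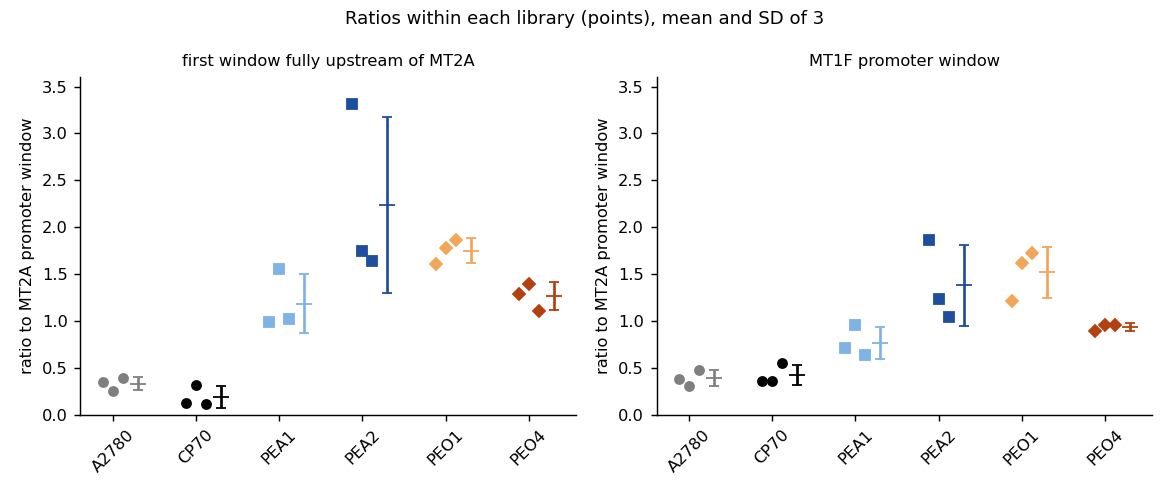
Ratio of FPKM to the MT2A promoter window in the same library, for the window centred at -1.4 kb and for the MT1F promoter window; points are libraries, bars the mean with SD. Every A2780 and CP70 library lies below every library of the other 4 lines in both panels. How many other windows separate the lines in this way was not counted, and both windows are in the table only through the PEA and PEO lines.

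The lines of each pair were compared next, resistant against sensitive, with limma on log2(FPKM + 0.1) over all windows of the table with a mean above 1 FPKM in the pair. A window passed at a Benjamini-Hochberg adjusted p below 0.05, and was called at the thresholds of the study when it also changed by more than 2 on the log2 scale at an adjusted p below 0.001. The median of all windows tested was 0.59 in CP70 against A2780, 0.31 in PEA2 against PEA1 and -0.30 in PEO4 against PEO1, so values relative to these medians are given as well. Fold changes on this scale understate the change of low windows.

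In CP70, 6 windows of the range were tested and all 6 were more accessible than in A2780, against 47.5% higher and 2.29% lower among all windows. That count rests on the filter, which MT1F passed only through CP70. With no filter 7 of the 31 windows were higher (22.6%) and 0 lower, against 17.7% and 3.17% of all 89428. The 6 lay at MT2A, MT1F, MT1X and the BBS2 promoter, and their median log2 fold change was 1.19, against 0.59 over all windows and 0.58 over promoter windows. MT1X rose from 1.40 ± 0.115 to 3.97 ± 1.76 FPKM, a log2 change of 1.36 (SE 0.264, limma adjusted p = 7.95e-06) and 0.77 above the median of all windows. The window just upstream of MT2A measured 1.78, 1.78 and 1.87 FPKM in A2780 and 5.91, 4.25 and 4.02 in CP70, which did not overlap, with a log2 change of 1.32 (SE 0.277, limma adjusted p = 3.97e-05). The MT2A promoter window itself rose by 1.07 (SE 0.27, limma adjusted p = 0.000714) and MT1F by 1.12 (SE 0.282, limma adjusted p = 0.000728). With median centring of the libraries 3 of the 6 passed, MT1X (0.78, limma adjusted p = 0.00466) and the windows upstream of MT1X and MT2A, while MT2A (0.49, limma adjusted p = 0.0538) and MT1F (0.54, limma adjusted p = 0.191) did not. Replicate 1 of CP70 held the highest MT2A and MT1X values, and without it the log2 fold changes were 0.81 and 1.03, while MT1F then fell under the filter on low windows. At the thresholds of the study 0 windows of the range were called by limma or edgeR, and limma called 0.797% of all windows. The promoter windows of MT1E, MT1M and MT1A averaged below 1 FPKM over the pair and were not tested.

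In PEA2, 25 of 29 windows tested were higher than in PEA1 and 0 were lower by limma and by edgeR, against 43% higher and 21.4% lower among all windows. That count rests partly on selection. Several of the 29 passed the filter only through PEA2, and some are in the table only through PEA2 libraries. With no filter 27 of the 31 windows were higher (87.1%) and 0 lower, against 39.8% and 18.2% of all 89428. All 29 differences were above 0, or 27 with median centring, and their median was 1.01, against 0.31 over all windows and -0.24 over promoter windows. Among promoters, MT1F rose from 2.52 ± 0.642 to 5.09 ± 0.673 FPKM (log2 fold change 1.01, SE 0.227, limma adjusted p = 2.65e-05), MT1M by 0.82 (limma adjusted p = 0.000716) and MT1E by 0.68 (limma adjusted p = 0.00663). MT2A and MT1X gave 0.21 (limma adjusted p = 0.435) and 0.18 (limma adjusted p = 0.492), values that turned to -0.17 and -0.19 with median centring. With that centring MT1F (0.64) and MT1M (0.45, limma adjusted p = 0.0136) still passed and MT1E (0.31, limma adjusted p = 0.114) did not, and the windows higher in PEA2 were 18 of 29, against 34.4% of all windows. Of the 11 that overlap a member, 3 were higher with centring and 9 without. The windows that overlap a member had a median of 0.68 over 11 tested, and those that do not 1.37 over 18. These medians cannot be compared, because several of the latter averaged below 1 FPKM in PEA1 and passed the filter only through PEA2. None of the 11 did so.

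At the thresholds of the study 3 windows were called in PEA2, where 12.7% of all windows are. The largest change was at chr16:56610900-56611900, 8031 bp from MT4 within the annotated span of BBS2, a Bardet-Biedl syndrome gene. That span as annotated reaches past MT4, and the promoter window of BBS2 is at chr16:56553300-56554300. The window of largest change therefore lies far from the BBS2 promoter window. This window measured 0.224, 0.125 and 0.384 FPKM in PEA1, from 4 to 8 reads, and 3.35, 2.31 and 3.06 in PEA2. The lines were well apart, with a log2 change of 3.18 (SE 0.296, limma adjusted p = 2.36e-25), and 2.59 after each library was corrected for the median of the surrounding 5 Mb bin. The others were at chr16:56581200-56582200, also within the span of BBS2 (2.15, SE 0.302, limma adjusted p = 7.86e-12), and at chr16:56713500-56714500, which is 1882 bp from MT1X (2.13, SE 0.256, limma adjusted p = 8.64e-16). None of the 3 overlaps a member gene, and each averaged below 1 FPKM in PEA1 and passed the filter through PEA2.

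In PEO4, 18 of 30 windows tested were lower than in PEO1 and 1 was higher, against 45.8% lower and 21.9% higher among all windows. With no filter 17 of the 31 windows were lower and 1 higher, against 41.1% and 20.3% of all 89428. The median log2 fold change of the 30 was -0.48, against -0.30 over all windows and -0.02 over promoter windows. MT1F fell from 11.8 ± 1.16 to 6.21 ± 0.536 FPKM (log2 fold change -0.92, SE 0.125, limma adjusted p = 5.2e-08), MT1M gave -0.89 (limma adjusted p = 3.17e-05), MT1A -0.81 (limma adjusted p = 0.00433) and MT1E -0.47 (limma adjusted p = 0.0041). MT2A gave -0.24 (limma adjusted p = 0.0977) and MT1X -0.19 (limma adjusted p = 0.176), and with median centring these were 0.10 and 0.16. With that centring 5 windows were higher and 10 lower, against 35.4% and 31.3% of all windows, so that the share of lower windows was near that of all windows. MT1E (-0.12) and MT1A (-0.46) no longer passed, while MT1F (-0.57) and MT1M (-0.55) did.

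The largest decreases in PEO4 were both within the BBS2 span. At chr16:56592000-56593000 the values were 2.53, 4.71 and 2.79 FPKM in PEO1 and 0.814, 0.912 and 1.20 in PEO4, a log2 change of -1.64 (SE 0.245, limma adjusted p = 3.07e-07). At chr16:56610900-56611900, the window with the largest increase in PEA2, the values were 2.12, 1.92 and 2.56 in PEO1 and 0.639, 0.624 and 0.797 in PEO4, a log2 change of -1.55 (SE 0.275, limma adjusted p = 6.33e-06). The libraries did not overlap in either window, but both averaged below 1 FPKM in PEO4 and passed the filter only through PEO1. No window was called at the thresholds of the study by limma (8.49% over all windows), and 1 was by edgeR.

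The single window higher in PEO4 was at chr16:56713500-56714500, the window 1882 bp from MT1X that was also called in PEA2. It measured 0.506, 0.349 and 0.446 FPKM in PEO1, from 4 to 5 reads, and 2.09, 1.73 and 1.79 in PEO4, with 36 reads in each library. The change was 1.89 on the log2 scale (SE 0.321, limma adjusted p = 3.01e-06), against 2.13 in PEA2, and the difference between the pairs was -0.24 (limma adjusted p = 0.579). In A2780 and CP70 the window was at 0.457 ± 0.139 and 0.440 ± 0.318 FPKM. Its mean was above 1 FPKM only in PEA2 and PEO4, which is a description, since the window passed the filter of each pair only through these lines and the limit of the table mostly through PEA2. It held neither a metal response core nor an AP-1 motif.

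**Figure D5:**
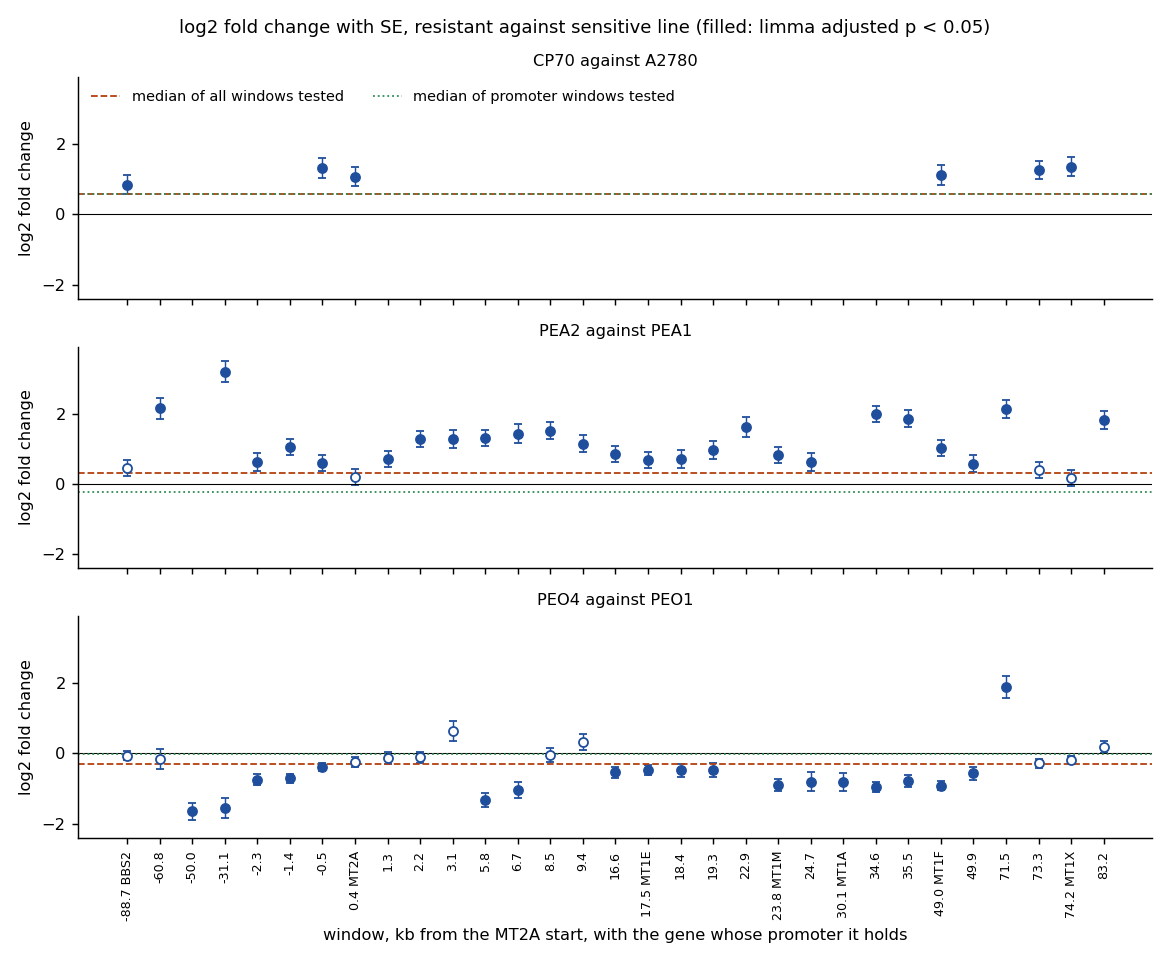
Log2 fold change with SE of the windows of the range in each pair, in genome order; filled points have a limma adjusted p below 0.05, the dashed line is the median of all windows tested and the dotted line that of promoter windows. All 6 windows tested in CP70 and 25 of 29 in PEA2 are filled and above 0, while 18 of 30 in PEO4 are filled and below 0; with median centring these counts are 3, 18 and 10, with 5 higher in PEO4.

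Whether the pairs differed was tested as the difference of their fold changes. Between the PEA and A2780 pairs 12 of 25 windows differed, against 55.7% of all windows, between the PEO and A2780 pairs 17 of 26, against 48.1%, and between the PEO and PEA pairs 25 of 30, against 68.1%. At MT1F the fold changes in CP70 and PEA2 were not told apart (difference -0.11, SE 0.342, limma adjusted p = 0.801) and that in PEO4 was lower than both (-2.04, limma adjusted p = 1.08e-06, against the A2780 pair, and -1.93, limma adjusted p = 1.12e-08, against the PEA pair). The fold changes of MT2A and MT1X were higher in CP70 than in PEA2, with differences of -0.87 (limma adjusted p = 0.0245) and -1.18 (limma adjusted p = 0.00254). Over all promoter windows the median of this difference was -0.79 and 50.4% were lower, so the value of MT2A was near that of a typical promoter. For the PEO pair against the A2780 and PEA pairs, the promoter medians were -0.56 and 0.20.

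The 5 Mb bin that holds the range had a median log2 fold change of 0.63 over 97 windows in CP70 and -0.32 over 160 in PEO4, close to the 0.59 and -0.30 of all windows. In PEA2 it was 0.62 over 185 windows, against 0.31. When this median was removed from each library and the fit repeated, 3 windows of the range were higher in CP70, against 6.74% of all windows. In PEA2 15 were higher and 2 lower, against 28.2% and 29.9%, and in PEO4 4 were higher and 10 lower, against 24.9% and 26.4%. The 2 lower ones in PEA2 were the promoter windows of MT2A (-0.39, limma adjusted p = 0.0449) and MT1X (-0.41, limma adjusted p = 0.0147), while MT1F was still higher (0.42, limma adjusted p = 0.0167). MT1M (0.23, limma adjusted p = 0.215) and MT1E (0.084, limma adjusted p = 0.693) no longer passed there. Of 8 neighbouring genes 7 had a promoter window in the table. NUDT21 and OGFOD1 share one, and of the 6 distinct windows 3, 2 and 1 were higher and 0 lower in CP70, PEA2 and PEO4, with medians of 0.68, 0.38 and 0.06. The shares higher over promoter windows were 43.9%, 17.6% and 26.4%.

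The other genes of metal handling were counted at their promoter windows, as a list of 25 made of MTF1 and the zinc transporters of the SLC30 and SLC39 families, of which 21 were in the table. In CP70 9 of 20 tested were higher and 1 lower, in PEA2 3 higher and 9 lower of 20, and in PEO4 6 higher and 9 lower of 21, with medians of 0.59, -0.42 and -0.23. Among all promoter windows tested, 43.9%, 17.6% and 26.4% were higher and 1.49%, 35.8% and 30.96% lower in the 3 pairs. MTF1, the metal sensor, measured 13.6 ± 0.680 FPKM in PEO1 and 20.6 ± 1.43 in PEO4 (log2 fold change 0.60, limma adjusted p = 3.48e-06), and it gave 0.45 in CP70 (limma adjusted p = 0.162) and -0.43 in PEA2 (limma adjusted p = 0.0925). SLC30A1, the plasma membrane zinc exporter and itself a target of MTF1, was higher in CP70 (0.84, limma adjusted p = 0.032), lower in PEA2 (-0.59, limma adjusted p = 0.0184) and gave 0.18 in PEO4 (limma adjusted p = 0.152). The 1 window of the list called at the thresholds of the study was that of SLC39A4, an intestinal zinc importer, chosen for mention after its value was seen. It rose from 0.483 ± 0.269 FPKM in PEO1 to 5.07 ± 0.555 in PEO4 (3.28, limma adjusted p = 1.85e-12). The window passed the filter only through PEO4, and its change was not compared with that of its surrounding region.

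Across the 18 libraries, the promoters of MT1X and MT2A had the closest values of log2 FPKM (Pearson r 0.97), followed by MT1E and MT1F (0.94), whereas MT1A correlated with the others at 0.48 to 0.60. These points share library totals and the share of reads in the table, and libraries of one line are not independent. Outside the range, the promoter windows most like that of MT1X, the highest of the 6 on average, were those of CHMP4C (r 0.985), PPIC (0.981), TMEM127 (0.980), BOLA3 (0.979) and CIAO1 (0.978). Of 12693 promoters 1189 (9.37%) exceeded an r of 0.9 with it, and the median was 0.773.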

How the data were processed

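The authors aligned read pairs to hg19 with Bowtie2, discarded duplicates with Picard together with multiply aligned, blacklisted and mitochondrial reads, and counted the rest in 1 kb windows. They deposited FPKM made from these counts, which over windows of one length are RPM up to a constant factor. Tool versions, and a shift of read ends for the transposase, were not given in the sources used here. Every value was a whole multiple of the value of 1 read within 0.01 of a read, taking 1001 positions per window, which gave reads and library totals. The value of 1 read was the lowest value of a library, except in A2780 replicate 1, where no value was as low as 1 read and the lowest was taken as 2 reads, the smallest number at which all values came out whole. The window grid fitted GRCh37 chromosome lengths at 23 of 23 steps, and coordinates are as deposited.

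Groups and replicate numbers came from the sample labels, which give no batch, and all 18 columns were used. Replicates were not identical, and their chi-square per window was 1.07 to 2.1. Windows with a mean above 1 FPKM were compared with limma 3.58.1 (eBayes with trend, R 4.3.3) on log2(FPKM + 0.1). The study weighted counts with voom, in whose place the trend was used on the deposited FPKM. Voom was not run on the recovered reads. edgeR 4.0.16 on the recovered reads was an alternative, beside other pseudocounts, filters, scalings, the regional median, a replicate block and single libraries left out. The fits were tested on simulated data. Genes came from GENCODE release 44 mapped to GRCh37, and promoter sequences from RefSeq. The members, the lists and the rule for windows named with values were chosen with earlier results of these data known. That rule took the promoter windows and, in each pair and direction, the 2 windows of the range that changed most among those that passed. Other windows given with values, such as that at -1.4 kb, were chosen after their values were seen. PCR copies were not told apart by molecular identifiers, so read numbers give counting error at most.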

Additional observations from a re-analysis of the deposited data

Results flagged for a closer look

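Results in this section are those for which the resistant and sensitive lines differed by unequal amounts in 2 pairs, by the limma test of the difference of the log2 fold changes. This applied to 12 windows of the range between the PEA and A2780 pairs, 17 between the PEO and A2780 pairs and 25 between the PEO and PEA pairs. With median centring the 12 became 16, the 17 became 9 and the 25 became 16, against 57.3%, 35.5% and 71.0% of all windows.

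Between the PEA and A2780 pairs, the difference was -0.87 at the MT2A promoter and -1.18 at MT1X, against a median of -0.79 over all promoter windows. Between the PEO and A2780 pairs it was -1.31 at MT2A, -1.33 at MT1M, -1.08 at MT1A, -2.04 at MT1F and -1.54 at MT1X. The median of all promoter windows there was -0.56, or 0.12 with median centring. With median centring MT1F (-1.36, limma adjusted p = 0.000214) and MT1X (-0.87, limma adjusted p = 0.0138) still passed in that comparison, while MT2A (-0.64, limma adjusted p = 0.05), MT1M (-0.65, limma adjusted p = 0.11) and MT1A (-0.40, limma adjusted p = 0.389) did not.

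Between the PEO and PEA pairs the difference was -1.14 at MT1E, -1.72 at MT1M, -1.59 at MT1A and -1.93 at MT1F. The median of all promoter windows there was 0.20, or 1.00 with median centring. With median centring MT1M (-0.92, limma adjusted p = 0.00128) and MT1F (-1.13, limma adjusted p = 4.8e-06) passed, while MT1E (-0.34, limma adjusted p = 0.164) and MT1A (-0.79, limma adjusted p = 0.0798) did not.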

How the results depend on the processing

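With median centring, 3 windows were higher in CP70, 5 higher and 10 lower in PEO4, 1 was called at the thresholds of the study in PEA2 and 1 in PEO4, and 9 and 16 windows differed between the PEO pair and the A2780 and PEA pairs. With quantile normalization, 4 were higher and 11 lower in PEO4, 1 was called in PEA2 and 1 in PEO4, and 10 differed between the PEO and A2780 pairs. With the regional 5 Mb median taken off the fold changes and p left as fitted, 3 windows in PEA2 counted as lower, at values near 0 whose p belongs to the unshifted rise, so that nothing is read from them, and 1 was called in PEA2 and 1 in PEO4. With it taken off each library and p refitted, which was chosen after seeing the data, 3 were higher in CP70, 15 higher, 2 lower and 1 called in PEA2, and 4 higher, 10 lower and 1 called in PEO4. A pseudocount of 1 left 0 called in PEA2 and 2 higher in PEO4. A minimum mean of 2 FPKM, which tests fewer windows, left 11 higher and 0 called in PEA2, 0 higher in PEO4, and 4 and 11 that differed from the A2780 pair in the PEA and PEO pairs. edgeR called 1 window in PEO4. The cause of the scaling effects was not tested.

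Leaving out single libraries gave 5 to 6 windows higher in CP70, 20 to 26 higher and 2 to 5 called in PEA2, and 0 to 2 higher and 16 to 18 lower in PEO4. It gave 7 to 14, 15 to 20 and 24 to 26 windows that differed between the PEA and A2780, PEO and A2780, and PEO and PEA pairs, and 66 to 71 promoter differences between lines. The 5 called in PEA2 arose without PEA1 replicate 3 or PEA2 replicate 2, the 0 and 2 in PEO4 without PEO4 replicate 1, where the window was no longer tested, and PEO1 replicate 2, and the 7 without PEA2 replicate 1.

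Signs turned for values near 0. In PEA2 the MT2A promoter gave -0.17 centred, -0.42 with the regional median removed and -0.39 refitted, MT1X -0.19, -0.44 and -0.41, and the window upstream of MT2A -0.035 and -0.0028 with the regional median removed and refitted. In PEO4 MT2A gave 0.10, 0.080 and 0.030, MT1X 0.16, 0.13 and 0.084, and the window at chr16:56581200-56582200 gave 0.19, 0.17 and 0.12, 0.30 with quantile normalization and 0.12 without PEO1 replicate 2.

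Same-numbered libraries deviated together by a correlation of -0.41 to 0.04, so replicate numbers did not pair them. With a replicate block 6 windows were higher in CP70, 25 in PEA2 and 1 in PEO4, 19 were lower in PEO4, and 69 promoter differences between lines passed.

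Depth limits the low windows: 42 of the 558 values of the range rest on fewer than 10 reads, the lowest on 1.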
